A study of Homo sapiens with 39 samples.

Results

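Genes of haem breakdown and iron handling were followed in JJN3, a human multiple myeloma (plasma cell) line: HMOX1, HMOX2, BACH1, BLVRA, BLVRB, FTH1, FTL, TFRC, IREB2 and ACO1. They were chosen by name, as the rows of the deposited count table that carry their Ensembl identifiers, and make up 10 of its 57773 rows. All 10 were found and all 10 passed the filter on low counts. RNA was sequenced from 39 libraries in 13 groups of 3, all of the same line: T0, the starting point, and 1, 3, 6 or 24 h in the solvent DMSO, in GSK-J4 or in ZnSO4. GSK-J4 is an inhibitor of the KDM6 histone demethylases, and ZnSO4 supplies zinc ions. The sources used here state no doses. The labels do not say whether the 3 libraries of a group came from separate cultures, so p-values measure only the spread between libraries, which may be technical. JJN3 is a single cell line, and nothing here was measured in other myeloma cells.

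Haem oxygenase opens the haem ring and releases iron, carbon monoxide and biliverdin, which biliverdin reductase turns into bilirubin. HMOX1 encodes the inducible oxygenase and HMOX2 the constitutive one. BACH1 is a haem-binding repressor that occupies the enhancers of HMOX1 and of the ferritin genes until haem or oxidative stress removes it and NRF2 takes its place. Released iron is stored in ferritin, a shell built from heavy (FTH1) and light (FTL) chains, while the transferrin receptor TFRC brings iron into the cell. The proteins of ACO1 and IREB2 (iron regulatory proteins IRP1 and IRP2) bind hairpins called iron-responsive elements when iron is scarce. Bound at the start of a ferritin mRNA they hold back its translation, and bound at the end of the TFRC mRNA they protect it from decay.

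Hairpins of the kind that IRP1 and IRP2 bind are short enough to show, and they lie at opposite ends of the ferritin and TFRC transcripts. Each sequence below is 29 bases of the mRNA strand of GENCODE 29 transcripts on the GRCh38 build, 5′ to 3′, with the hexanucleotide loop CAGTGN in capitals (N is any base but G). The element of FTH1 lies at chr11:61967574-61967602 on the minus strand, in the 5′ UTR in exon 1 of 4. That of FTL lies at chr19:48965335-48965363 on the plus strand, also in the 5′ UTR in exon 1 of 4. In TFRC the search described below found 4 matches, all on the minus strand in the 3′ UTR in exon 19 of 19. They lie at chr3:196050979-196051007 (TFRC a), chr3:196050575-196050603 (TFRC b), chr3:196050510-196050538 (TFRC c) and chr3:196050463-196050491 (TFRC d). The letters a to d only number these matches. Elements with another loop or stem would not be found.
FTH1: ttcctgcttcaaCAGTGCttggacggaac
FTL: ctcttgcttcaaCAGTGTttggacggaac
TFRC a: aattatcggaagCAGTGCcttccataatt
TFRC b: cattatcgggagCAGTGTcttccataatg
TFRC c: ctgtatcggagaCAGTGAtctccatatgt
TFRC d: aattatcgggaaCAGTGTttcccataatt

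Such a hairpin is rare. The search asked for CAGTGN on the transcript's own strand, closed by a paired upper stem, an unpaired C and a lower stem with at least 4 pairs. It found a match in a UTR of 13 of 19669 genes searched (0.0661%), which include 3 of the 10 genes followed here, and ALAS2 and SLC40A1 among their relatives. A match describes letters only. The elements act on translation or on mRNA decay, and of these only the mRNA level was measured here.

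Libraries held 4347745 to 10695671 counts (median 6010529). The first principal component (54.44% of the variance) parts the 24 h libraries from all others, and their composition factors (TMM) were also lower, at 0.8727 to 0.9479 against 0.9862 to 1.066. The share of mitochondrial counts was higher in every 24 h library (4.376 to 5.542%) than in all others (2.921 to 3.902%), and its part in the 24 h results was not tested. Within groups, the first-numbered library stood apart for some genes: in all 8 compound groups it had the lowest level of the 3 for HMOX1 and FTH1, and in 7 of 8 for FTL, against 1 of the 5 DMSO and T0 groups for each. Results are therefore also given without the first library of every group where that ends or adds a call, an alternative chosen after the data were seen. Markers matched the plasma cell label: all 10 plasma cell genes had a median over 1 CPM (summed level 11000 to 14700 CPM). Summed levels were 3.62 to 10.5 CPM for 10 erythroid genes, where only EPOR passed 1 CPM, 0.18 to 1.55 CPM for 8 genes of monocytes and macrophages, 0.559 to 2.5 CPM for 5 T cell genes and 0 to 1.94 CPM for 3 endothelial genes. Of 4 epithelial genes EPCAM and KRT8 passed 1 CPM (sum 40 to 80.5 CPM), and of 4 fibroblast genes COL1A1, COL1A2 and COL3A1 (sum 9.17 to 89.9 CPM). No marker was at 0 in all libraries, and the part of such genes in the results was not tested. Both compounds raised the zinc response genes MT1X, MT2A and SLC30A1 at every time (log2 fold change 0.81 to 9.26 against DMSO). The counting strand is not stated, so reads of an overlapping antisense gene cannot be told apart from a gene's own. BEST1 runs antisense over 62.414% of the FTH1 exon bases and held 174 counts in all libraries against 110447 for FTH1, and NMRAL1 covers 6.011% of HMOX2 with 910 counts against 6839.

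Before treatment, ferritin light chain was the most abundant of these mRNAs and the biliverdin reductases the least. Genes were compared per kb of all their annotated exons together (878 bases for FTL, 2030 for FTH1 and 7887 for TFRC). The transcript made can be shorter, so levels between genes, and the length-scaled ratios below, are approximate. T0 cells held 703.1 CPM per kb of FTL, 117.4 of FTH1 and 109.9 of TFRC. HMOX1 stood at 33.43 CPM per kb, above its constitutive counterpart HMOX2 at 8.715. The regulators were low, with 11.04 CPM per kb for IREB2, 7.631 for BACH1 and 5.541 for ACO1. BLVRB had 3.851 and BLVRA 1.022 CPM per kb, and BLVRA had only 2 to 24 counts in a library. From here on, levels are CPM, counts scaled to library size with TMM factors, and are compared only within a gene. A level in bulk RNA does not tell apart a change in the number of cells that express a gene from a change in the RNA per cell.

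**Figure D1:**
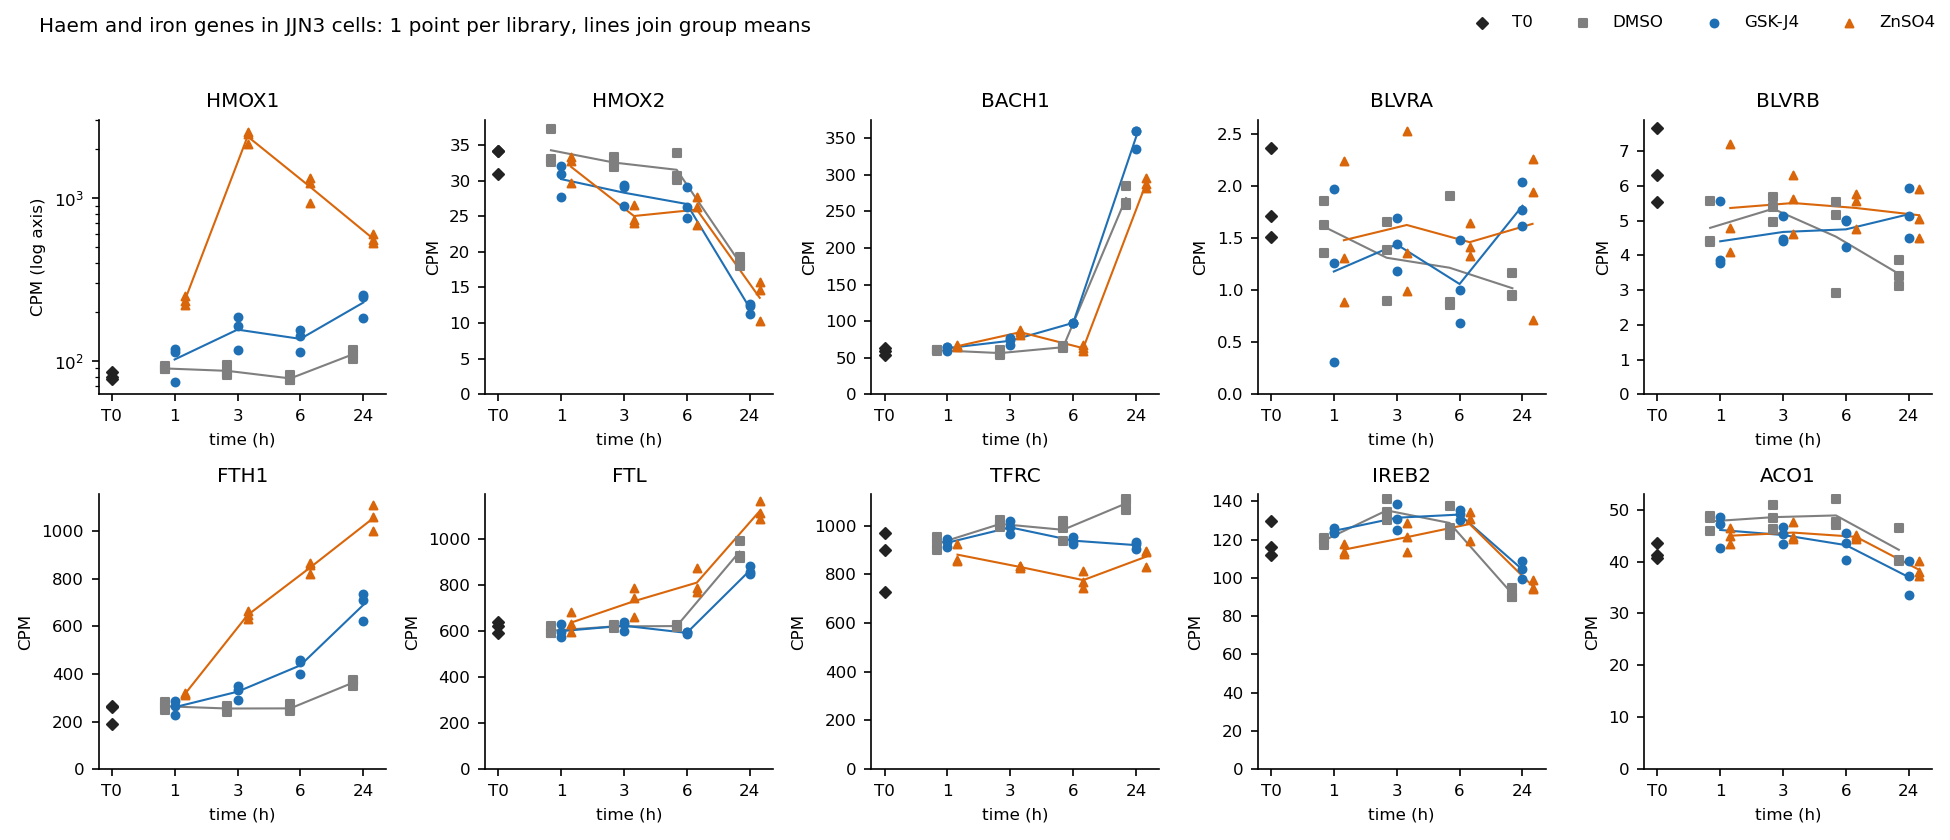
Level of each gene in CPM (y axis; a log axis for HMOX1, linear from 0 for the others) at T0 and at 1, 3, 6 and 24 h (x axis), 1 point per library, with lines through the means of 3 libraries. HMOX1 with ZnSO4 peaks at 2393 CPM at 3 h, FTH1 climbs to 1056 CPM at 24 h, and BACH1 is high in all 24 h groups, DMSO included.

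HMOX1 had the largest zinc response of the 10 genes, and at 3 h only 4 of all genes tested had a smaller p. The 3 libraries held 219.93, 232.53 and 250.1 CPM at 1 h of ZnSO4, 2144.6, 2544 and 2490.1 CPM at 3 h, 927.69, 1334.5 and 1241.6 CPM at 6 h, and 529.34, 554.11 and 601.5 CPM at 24 h. In DMSO the 12 libraries lay between 75.753 and 116.58 CPM, and in T0 between 77.069 and 84.893 CPM. Every ZnSO4 library was therefore above every DMSO and T0 library. The fold changes against DMSO at the same time were 2.62, 27.5, 14.9 and 5.12 at 1, 3, 6 and 24 h (95% intervals 2.22 to 3.08, 23.2 to 32.5, 12.7 to 17.6 and 4.37 to 6.00). In log2 terms these are 1.39 ± 0.12, 4.78 ± 0.12, 3.90 ± 0.12 and 2.36 ± 0.11 (± SE, n = 3 libraries a group), with adjusted p of 4.8e-14, 2.2e-41, 9.6e-37 and 6.3e-26 in edgeR's quasi-likelihood test with Benjamini-Hochberg adjustment over all 14460 genes tested.

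The zinc effect on HMOX1 peaked at 3 h. The log2 effect grew by 3.39 ± 0.17 from 1 to 3 h (adjusted p = 1.4e-24), the smallest p of all genes in that comparison. It then fell by 0.88 from 3 to 6 h (SE 0.17, adjusted p = 3.5e-04) and fell by 1.55 from 6 to 24 h (SE 0.16, adjusted p = 9.9e-10). At 24 h the gene was still 5.12-fold above DMSO.

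GSK-J4 raised HMOX1 much less and more unevenly. Libraries held 74.251, 118.4 and 113.16 CPM at 1 h, 116.87, 186.58 and 163.3 CPM at 3 h, 113.48, 154.14 and 141.72 CPM at 6 h, and 183.53, 252.93 and 247.71 CPM at 24 h. In each of these groups the first-numbered library was below the other two, and at 1 h it was below all DMSO libraries of the same time. From 3 h on every GSK-J4 library was above the DMSO libraries of its time. The log2 fold change was 0.19 ± 0.13 at 1 h (adjusted p = 1), and 0.84 ± 0.12, 0.80 ± 0.13 and 1.06 ± 0.12 at 3, 6 and 24 h (adjusted p = 7.8e-07, 1.5e-06 and 4.7e-11). No step between neighbouring times passed the test for GSK-J4: the effect moved by 0.65 ± 0.18 from 1 to 3 h (adjusted p = 0.0705), by −0.04 ± 0.18 from 3 to 6 h and by 0.26 ± 0.17 from 6 to 24 h. The step from 1 to 3 h passed without the first library of every group (0.72, adjusted p = 6.1e-05). It also passed without GSK-J4 replicate 1 of 3 h (0.82, adjusted p = 0.00271) or replicate 2 of 1 h (0.78, adjusted p = 0.0278), with no filter on low counts (0.68, adjusted p = 2.3e-09) and with only these groups fitted (adjusted p = 7.8e-04). Without the first libraries the log2 fold changes against DMSO were 0.35, 1.07, 0.96 and 1.19 at 1, 3, 6 and 24 h, with the 1 h value still short of the threshold (adjusted p = 0.0567).

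Set directly against each other, the compounds differed in HMOX1 at every time. The log2 difference of GSK-J4 from ZnSO4 was −1.20 ± 0.12 at 1 h, −3.94 ± 0.11 at 3 h, −3.10 ± 0.11 at 6 h and −1.30 ± 0.11 at 24 h (adjusted p = 1.9e-11, 5.1e-38, 2.3e-32 and 2.9e-15). At 3 h no other gene had a smaller p in this comparison. Ordered by level over all groups, HMOX1 was highest with ZnSO4 at 3 h, then at 6 h, then at 24 h, and the libraries of these groups overlapped neither each other nor any other group. ZnSO4 at 1 h (234 ± 15.2 CPM) and GSK-J4 at 24 h (228 ± 38.7 CPM) overlapped, and so did all neighbours further down the order.

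HMOX2, the constitutive oxygenase, was lower with zinc at 3 and 24 h and with GSK-J4 at 24 h. At 3 h of ZnSO4 its libraries held 24.085, 26.545 and 24.442 CPM against 32.402, 33.302 and 31.879 CPM in DMSO, with no overlap (log2 fold change −0.37 ± 0.10, adjusted p = 0.0048). Without the first library of every group this was −0.36 (adjusted p = 0.0592). At 24 h DMSO itself had come down to 19.283, 17.956 and 18.308 CPM from 34.086, 30.978 and 34.105 CPM in T0 (−0.83 ± 0.10, adjusted p = 9.4e-11). GSK-J4 at 24 h was lower still, at 12.403, 11.311 and 12.712 CPM (log2 fold change against DMSO −0.61 ± 0.13, adjusted p = 9.0e-05). ZnSO4 at 24 h held 10.257, 15.743 and 14.642 CPM (−0.43 ± 0.13, adjusted p = 0.0207), but without replicate 1 of that group, which had 41 counts, the value was −0.28 (adjusted p = 0.226), and without replicate 1 of DMSO at 24 h it was −0.41 (adjusted p = 0.071). The call was also lost with no filter on low counts (adjusted p = 0.0584) and with only the groups compared fitted (adjusted p = 0.0544), and without the first library of every group (−0.25, adjusted p = 0.413). In the other comparisons with DMSO HMOX2 did not pass. At 6 h of ZnSO4 it stood at −0.29 (adjusted p = 0.0613, and 0.0467 with RLE size factors), and at 6 h of GSK-J4 at −0.24 (adjusted p = 0.0739, and 0.0474 without GSK-J4 replicate 2). The length-scaled ratio of HMOX1 to HMOX2 transcript within a library was 3.85 ± 0.41 in T0 and 151 ± 10.1 at 3 h of ZnSO4 (mean ± SD, n = 3). At 24 h this ratio was 9.36 ± 0.59 in DMSO, 29.8 ± 6.02 with GSK-J4 and 67.2 ± 13.1 with ZnSO4.

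BACH1, the repressor of HMOX1, was raised in DMSO alone by 24 h. It held 63.654, 59.188 and 53.819 CPM in T0 and 261.68, 284.71 and 258.19 CPM in DMSO at 24 h, with DMSO libraries of 1 to 6 h at 53.207 to 65.595 CPM. This is a 4.53-fold rise (log2 fold change 2.18 ± 0.06, adjusted p = 1.2e-39), and BACH1 ranked 27 of 14460 genes by p in that comparison. Against this moving base, GSK-J4 raised BACH1 at 3, 6 and 24 h by 0.37 ± 0.07, 0.60 ± 0.07 and 0.39 ± 0.05 on the log2 scale (adjusted p = 1.3e-04, 8.5e-11 and 1.4e-08). At 24 h of GSK-J4 the libraries held 359.86, 360.1 and 334.75 CPM, above every other library.

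Zinc raised BACH1 at 3 h but not in the later groups. The 3 h libraries held 81.66, 85.559 and 87.769 CPM against 55.283, 60.834 and 53.207 CPM in DMSO (log2 fold change 0.59 ± 0.07, adjusted p = 5.4e-10). At 6 h they held 63.103, 58.616 and 67.695 CPM against 64.684, 65.595 and 63.139 CPM, and the groups overlapped (−0.02 ± 0.07, adjusted p = 0.897). At 24 h the log2 fold change was 0.10 ± 0.05 (adjusted p = 0.247). The zinc effect grew by 0.47 ± 0.10 from 1 to 3 h (adjusted p = 0.0011) and fell by 0.61 from 3 to 6 h (SE 0.10, adjusted p = 1.9e-05). GSK-J4 was above ZnSO4 by 0.62 ± 0.07 at 6 h and by 0.29 ± 0.05 at 24 h (adjusted p = 5.1e-11 and 3.0e-05). At 3 h it was below it by log2 −0.22 ± 0.06 (adjusted p = 0.0122), a call that ended without GSK-J4 replicate 2 (−0.17, adjusted p = 0.15), ZnSO4 replicate 2 (−0.21, adjusted p = 0.0514) or ZnSO4 replicate 3 (−0.19, adjusted p = 0.102) of that time, with library totals as the scale (−0.16, adjusted p = 0.0795) and with no filter on low counts (−0.21, adjusted p = 0.131).

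The biliverdin reductase genes, which act just downstream of haem oxygenase, had few counts and passed the test in no comparison of a compound with DMSO. BLVRB ranged from 2.9268 to 7.6658 CPM over all libraries, with a median of 5.0084, and 17 to 77 counts. It fell in DMSO from 7.6658, 5.5365 and 6.3085 CPM in T0 to 3.3949, 3.8754 and 3.1296 CPM at 24 h (log2 fold change −0.90 ± 0.22, adjusted p = 3.2e-04). At 24 h both compound groups lay above DMSO without overlap, at 4.4938 to 5.9337 CPM with GSK-J4 and 4.5029 to 5.904 CPM with ZnSO4, yet the log2 fold changes of 0.57 ± 0.24 and 0.56 ± 0.25 did not pass (adjusted p = 0.0609 and 0.162). With library totals as the scale, GSK-J4 did (0.66, adjusted p = 0.0272). BLVRA ranged from 0.30914 to 2.5229 CPM. Its 95% interval with ZnSO4 at 3 h ran from 0.699-fold to 2.27-fold, so a change of that size would not be seen at this depth. At 24 h BLVRA held 1.6178 to 2.0397 CPM with GSK-J4 and 0.93888 to 1.1626 CPM in DMSO, without overlap. This log2 fold change of 0.81 ± 0.45 did not pass (adjusted p = 0.169).

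**Figure D2:**
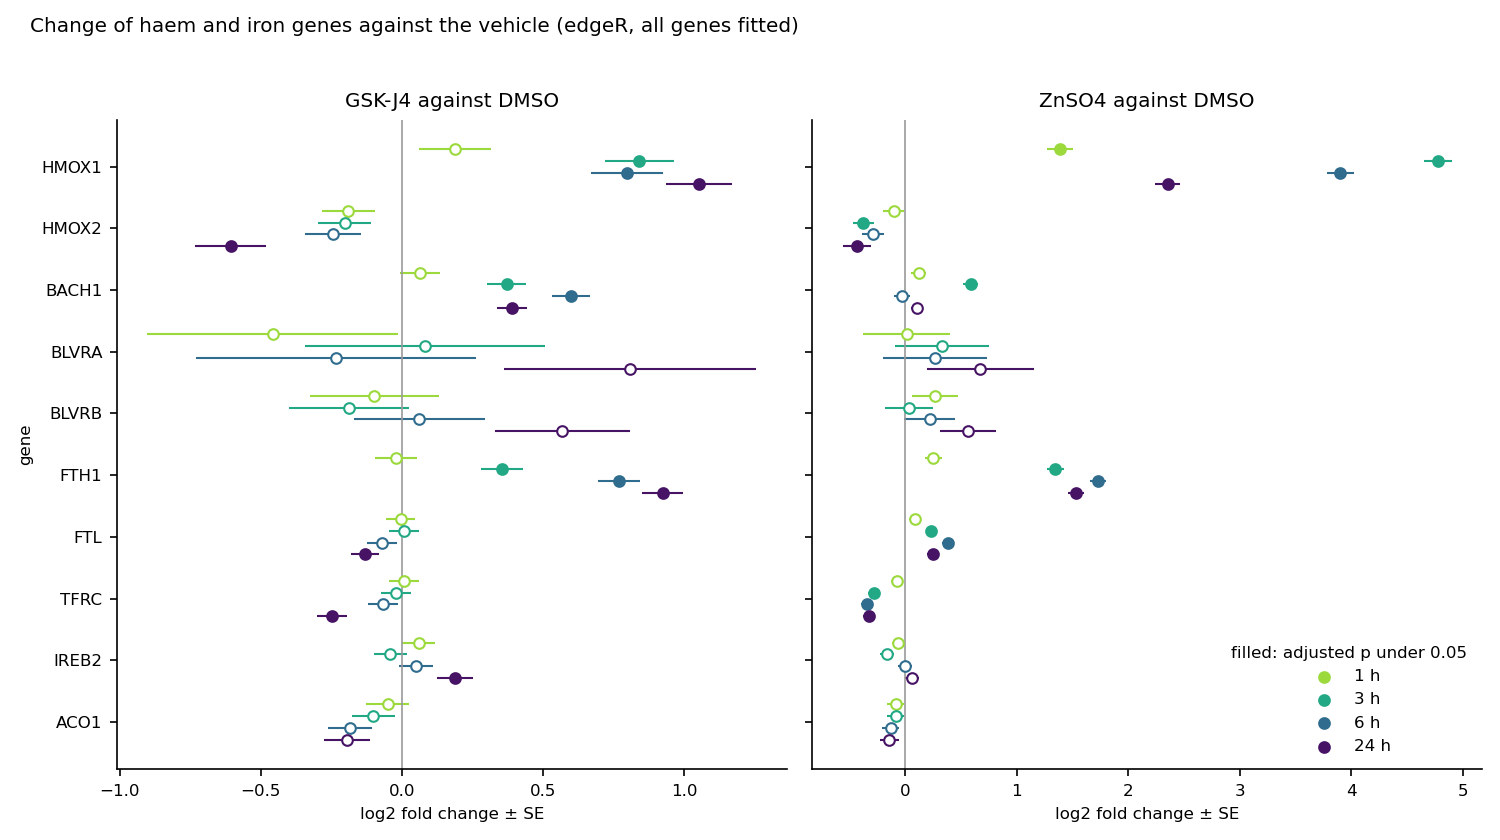
Log2 fold change of each gene against DMSO of the same time (x axis, ± SE; the scales of the panels differ) for GSK-J4 (left) and ZnSO4 (right), coloured by time; filled points have an adjusted p under 0.05. FTH1 rises with both compounds, from 0.36 at 3 h to 0.92 at 24 h of GSK-J4 and up to 1.73 at 6 h of ZnSO4, while TFRC is lower from 3 h of ZnSO4 on and at 24 h of GSK-J4.

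Ferritin heavy chain rose with both compounds from 3 h on, and its level was highest at 24 h of ZnSO4. With ZnSO4 the FTH1 libraries held 310.89, 314.9 and 318.43 CPM at 1 h, 629.85, 647.4 and 666.6 CPM at 3 h, 820.7, 867.07 and 859.05 CPM at 6 h, and 999.88, 1058.7 and 1110.2 CPM at 24 h. Their DMSO counterparts lay between 238.56 and 280.46 CPM up to 6 h and at 348.27 to 372.89 CPM at 24 h. Every ZnSO4 library was above the DMSO libraries of its time. The log2 fold change was 0.25 ± 0.07 at 1 h, which did not pass (adjusted p = 0.133, against 0.00786 with only those groups fitted and 0.00938 with no filter on low counts), then 1.35 ± 0.07, 1.73 ± 0.07 and 1.54 ± 0.07 at 3, 6 and 24 h (adjusted p = 2.4e-23, 7.3e-29 and 1.2e-26).

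The zinc effect on FTH1 grew by 1.09 ± 0.10 from 1 to 3 h (adjusted p = 4.8e-12) and by 0.38 ± 0.10 from 3 to 6 h (adjusted p = 0.0251), over the interval in which that on HMOX1 fell. The later step was fragile: the call held in 4 of 12 fits that left out 1 library, with log2 values of 0.35 to 0.44, and not with DESeq2 (adjusted p = 0.102). It was lost without DMSO replicate 1 or 3 of 3 h, DMSO replicate 2 or 3 of 6 h, ZnSO4 replicate 1 or 2 of 3 h, and ZnSO4 replicate 2 or 3 of 6 h (adjusted p = 0.0555 to 0.103). From 6 to 24 h the effect moved by −0.19 ± 0.10 (adjusted p = 0.58).

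With GSK-J4 the FTH1 libraries held 229.58, 284.56 and 266.6 CPM at 1 h, 292.65, 350.37 and 333.79 CPM at 3 h, 400.82, 458.11 and 450.81 CPM at 6 h, and 623.37, 710.94 and 737.47 CPM at 24 h. The groups overlapped DMSO at 1 h (log2 fold change −0.02 ± 0.07, adjusted p = 1) and were above it from 3 h on. The fold changes were 1.28, 1.71 and 1.90 at 3, 6 and 24 h (log2 0.36 ± 0.07, 0.77 ± 0.07 and 0.92 ± 0.07, adjusted p = 0.00105, 5.9e-13 and 1.3e-16). The effect grew by 0.38 ± 0.11 from 1 to 3 h, which did not pass (adjusted p = 0.108). That step passed without GSK-J4 replicate 2 of 1 h (adjusted p = 0.042) or replicate 1 of 3 h (adjusted p = 0.0291). It also passed with no filter on low counts (adjusted p = 0.00117) and with only these groups fitted (adjusted p = 4.1e-04). From 3 to 6 h the effect grew by 0.42 ± 0.10 (adjusted p = 0.0102), which did not pass without GSK-J4 replicate 1 of 3 h (0.34, adjusted p = 0.0674). The step from 6 to 24 h, 0.15 ± 0.10, did not pass (adjusted p = 0.465). Against ZnSO4 directly, GSK-J4 was lower by log2 −0.99 ± 0.07, −0.96 ± 0.07 and −0.61 ± 0.07 at 3, 6 and 24 h (adjusted p = 5.1e-18, 1.7e-17 and 2.1e-10), and at 1 h −0.27 ± 0.07 did not pass (adjusted p = 0.0704). At 1 h it did pass without GSK-J4 replicate 2 (−0.34, adjusted p = 0.0261), with no filter (adjusted p = 0.0022) and with only the groups compared fitted (adjusted p = 0.0222).

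Ferritin genes have many processed copies that can share reads with the parent. The table holds 25 named FTH1 pseudogenes, with 24.01% of the summed counts of gene and copies, and this share stayed within 22 to 26% in the libraries of every group. The 16 named copies of FTL held 4.441%. Summing each gene with its copies, an alternative chosen after the data were seen, left all 44 tests of these genes on the same side of the threshold.

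Ferritin light chain was higher with zinc from 3 h on, by at most log2 0.38, and lower with GSK-J4 at 24 h in a call that did not hold throughout. With ZnSO4, FTL held 661.03, 784.18 and 740.79 CPM at 3 h against 621.01, 626.15 and 610.42 CPM in DMSO (log2 fold change 0.24 ± 0.05, adjusted p = 6.6e-04). At 6 and 24 h the log2 fold change was 0.38 ± 0.05 and 0.25 ± 0.05 (adjusted p = 1.2e-07 and 4.9e-04), with all ZnSO4 libraries above DMSO. The log2 fold changes with GSK-J4 up to 6 h, −0.07 to 0.01, did not pass. At 24 h the GSK-J4 libraries held 856.69, 880.97 and 846.41 CPM against 926.94, 915.88 and 988.01 CPM in DMSO (−0.13 ± 0.05, adjusted p = 0.0417). That call did not hold without DMSO replicate 3 (−0.10, adjusted p = 0.18), GSK-J4 replicate 1 (−0.13, adjusted p = 0.0857) or GSK-J4 replicate 3 (−0.12, adjusted p = 0.108), nor without the first library of every group (−0.14, adjusted p = 0.081) or with library totals as the scale (−0.04, adjusted p = 0.567). Between the compounds, GSK-J4 was lower at 3, 6 and 24 h by log2 −0.23 ± 0.05, −0.45 ± 0.05 and −0.38 ± 0.05 (adjusted p = 9.9e-04, 2.6e-10 and 2.9e-08). The length-scaled ratio of heavy to light chain transcript was 0.166 ± 0.025 in T0 and 0.167 ± 0.005 in DMSO at 24 h. It reached 0.455 ± 0.022 at 6 h of ZnSO4 and 0.347 ± 0.031 at 24 h of GSK-J4.

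TFRC, the iron importer, was moderately lower with zinc than in DMSO, while the ferritin mRNAs were higher. Its ZnSO4 libraries held 824.68, 834.09 and 832.63 CPM at 3 h, 769.05, 746.08 and 814.8 CPM at 6 h, and 891.32, 895.99 and 831.75 CPM at 24 h. DMSO held 993.1, 1022 and 1007.6 CPM at 3 h, 992.16, 1020.6 and 937.28 CPM at 6 h, and 1102.3, 1110.3 and 1063 CPM at 24 h. No ZnSO4 library of these times reached the DMSO level of its time. The log2 fold changes against DMSO were −0.28 ± 0.05, −0.34 ± 0.05 and −0.32 ± 0.05 (adjusted p = 8.1e-05, 4.0e-06 and 1.4e-05). The T0 libraries held 971.65, 899.55 and 729.22 CPM, and every ZnSO4 library from 3 h on lay within that range. With GSK-J4 at 24 h TFRC was below DMSO, at 923.2, 933.64 and 904.49 CPM, also within the T0 range. The log2 fold change of GSK-J4 against DMSO was −0.25 ± 0.05 (adjusted p = 1.8e-04), and at 1, 3 and 6 h the values of 0.01, −0.02 and −0.07 did not pass. The step of this effect from 6 to 24 h, −0.18 ± 0.075, did not pass either (adjusted p = 0.169, and 0.0259 with only these groups fitted). GSK-J4 was above ZnSO4 by 0.26 ± 0.05 at 3 h and 0.27 ± 0.05 at 6 h (adjusted p = 2.8e-04 and 8.3e-05), and by 0.08 ± 0.05 at 24 h, which did not pass (adjusted p = 0.331, and 0.0319 with library totals as the scale).

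The ratio of FTH1 to TFRC transcript within a library combines both mRNA levels, and its changes followed mostly FTH1. With GSK-J4 at 3 and 6 h the ratio rose while TFRC did not pass (log2 fold change −0.02 and −0.07 against DMSO). Scaled to length it was 1.06 ± 0.07 in T0 and 0.984 ± 0.067 to 1.30 ± 0.07 over the DMSO groups. With ZnSO4 it was 1.39 ± 0.07 at 1 h, 3.03 ± 0.07 at 3 h, 4.25 ± 0.23 at 6 h and 4.71 ± 0.43 at 24 h. With GSK-J4 it was 1.09 ± 0.10, 1.27 ± 0.13, 1.81 ± 0.15 and 2.92 ± 0.27. With zinc from 3 h on, FTH1 and FTL were higher than in DMSO and TFRC was lower. With GSK-J4 at 24 h FTH1 was higher than in DMSO and TFRC lower, and FTL was lower in a call that did not hold throughout. In DMSO at 24 h FTH1, FTL and TFRC were all above T0.

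**Figure D3:**
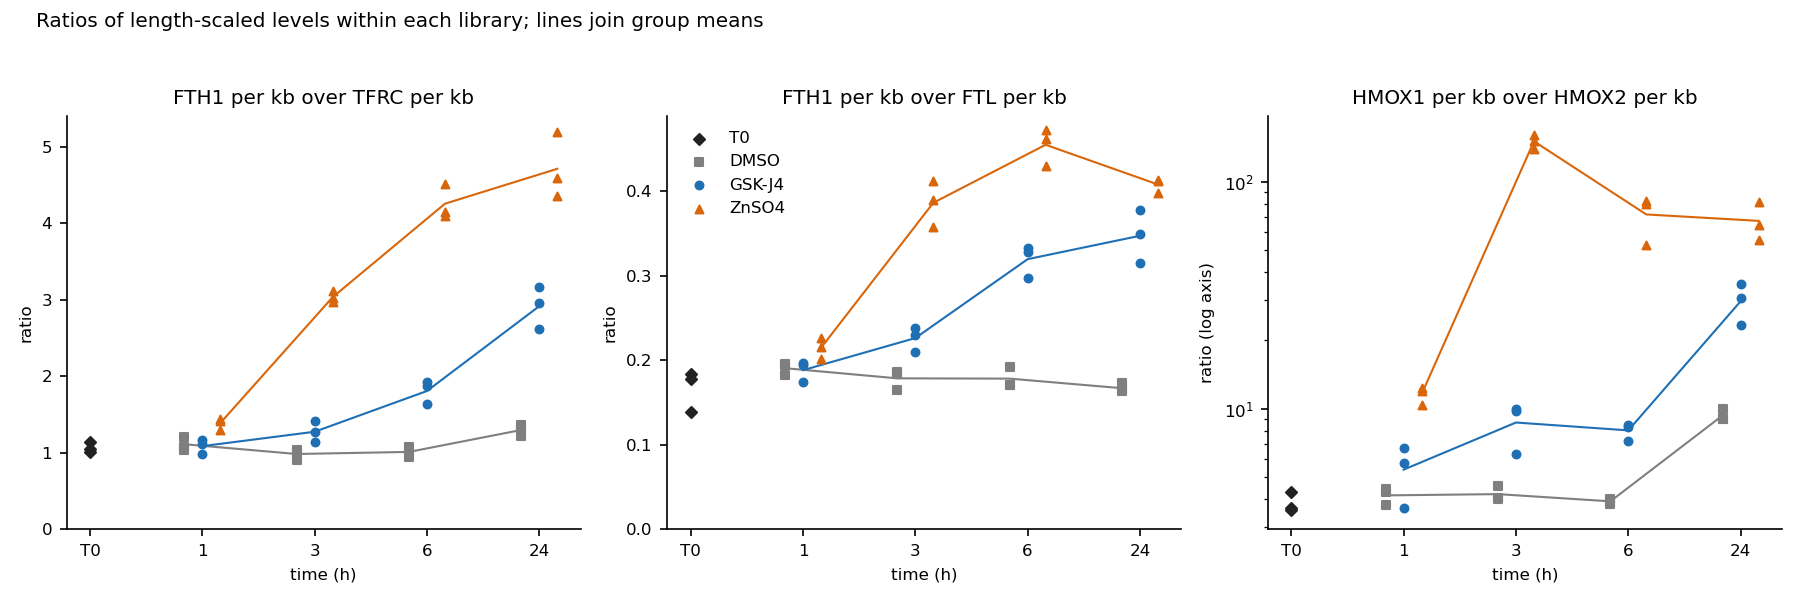
Ratios of length-scaled levels (CPM per kb) within each library at T0 and at 1, 3, 6 and 24 h (x axis), 1 point per library, lines through the means of 3. FTH1 over TFRC reaches 4.71 with ZnSO4 and 2.92 with GSK-J4 at 24 h, FTH1 over FTL peaks at 0.455 at 6 h of ZnSO4, and HMOX1 over HMOX2 (log axis) peaks at 151 at 3 h of ZnSO4.

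Against DMSO, of the mRNAs of the iron sensors, IREB2 passed the test at 24 h of GSK-J4 and ACO1 at no time. ACO1 lay between 33.613 and 52.041 CPM in all 39 libraries (median 44.747) and passed the test in no comparison. Its log2 fold changes against DMSO ran from −0.05 to −0.20, and that with GSK-J4 at 24 h (−0.20 ± 0.08) had an adjusted p of 0.0617. That value passed without DMSO replicate 1, DMSO replicate 3 or GSK-J4 replicate 3 of 24 h (−0.25, −0.23 and −0.26, adjusted p = 0.0331, 0.0477 and 0.0278). With library totals as the scale, ACO1 also passed as lower in DMSO at 24 h against T0 (−0.21, adjusted p = 0.0173). IREB2 lay between 89.761 and 141.12 CPM. It rose with GSK-J4 at 24 h, from 89.761, 94.688 and 90.132 CPM in DMSO to 104.61, 99.575 and 108.76 CPM (log2 fold change 0.19 ± 0.06, adjusted p = 0.0174). That call was lost without DMSO replicate 1, DMSO replicate 3 or GSK-J4 replicate 3 of 24 h (log2 0.16, 0.17 and 0.15, adjusted p = 0.0869, 0.0684 and 0.12), without the first library of every group (0.17, adjusted p = 0.122) and with no filter on low counts (0.14, adjusted p = 0.365). With ZnSO4 at 3 h IREB2 stood at −0.16 ± 0.06 (adjusted p = 0.072). It passed there without ZnSO4 replicate 1 (−0.20, adjusted p = 0.0372), with library totals (adjusted p = 0.0186) and with only the groups compared fitted (adjusted p = 0.0258).

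DMSO cells changed with time too, which sets the base for every 24 h value. Against T0 at 24 h, FTL and FTH1 rose by log2 0.61 ± 0.05 and 0.60 ± 0.07 (adjusted p = 2.2e-16 and 1.7e-10), TFRC by 0.33 ± 0.05 (adjusted p = 1.9e-07) and HMOX1 by 0.45 ± 0.13 (adjusted p = 0.00171), beside BACH1. IREB2 fell by 0.38 (SE 0.06, adjusted p = 1.9e-07), beside HMOX2 and BLVRB. Scaling by library totals moved the median of all genes in this comparison from −0.02 to −0.24, and the calls of HMOX1 (0.22, adjusted p = 0.121) and TFRC (0.11, adjusted p = 0.0625) did not pass on that scale. BLVRA, with few counts, passed as lower on that scale (−1.03, adjusted p = 0.032), against −0.815 with TMM factors (adjusted p = 0.0952). ACO1 passed as lower there too (−0.21, adjusted p = 0.0173), against 0.01 with TMM factors (adjusted p = 0.891). In T0, replicate 3 was low for FTH1 (189.45 CPM against 261.46 and 264.04 CPM) and for TFRC (729.22 CPM against 971.65 and 899.55 CPM). Without T0 replicate 1, TFRC passed as higher in DMSO at 3 and 6 h (0.30 and 0.27, adjusted p = 6.4e-04 and 0.00129), against 0.21 and 0.18 with it (adjusted p = 0.0587 and 0.16). It also passed at 3 h without T0 replicate 2 (0.24, adjusted p = 0.0354) and with DESeq2 (adjusted p = 0.0179), and at 6 h without DMSO replicate 3 (0.22, adjusted p = 0.0446) and with DESeq2 (adjusted p = 0.036). Without the first library of every group TFRC passed at 3 and 6 h as well (0.32 and 0.26, adjusted p = 0.00721 and 0.0346). IREB2 passed as higher at 3 h without T0 replicate 1 (0.25, adjusted p = 0.0158) and without the first library of every group (0.28, adjusted p = 0.0418), against 0.18 with it (adjusted p = 0.162).

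Counts of calls over the 10 genes are read against the share of all 14460 genes called in the same comparison, given in brackets. Against DMSO, GSK-J4 raised 0 of 10 at 1 h (0.104%; HMOX2 had an unadjusted p of 0.0477, and DESeq2 also called 0), 3 at 3 h (2.38%), 3 at 6 h (20.4%), and raised 4 and lowered 3 at 24 h (32%). ZnSO4 raised 1 at 1 h (0.678%), raised 4 and lowered 2 at 3 h (10.8%), raised 3 and lowered 1 at 6 h (9.32%), and raised 3 and lowered 2 at 24 h (9.56%). The median log2 fold change of the 10 genes was −0.01, −0.01, −0.01 and 0.29 with GSK-J4 and 0.05, 0.14, 0.11 and 0.18 with ZnSO4, beside medians of at most 0.02 in size over all genes tested. Both sets of comparisons share the DMSO libraries.

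Between the compounds, GSK-J4 was lower than ZnSO4 in 1 of the 10 genes at 1 h (0.664%). It was higher in 1 and lower in 4 at 3 h (10.1%), higher in 2 and lower in 3 at 6 h (18.4%), and higher in 1 and lower in 3 at 24 h (24.5%). HMOX1 was among the lower genes each time, joined by FTH1 and FTL from 3 h on. The median of the 10 genes was −0.09, −0.22, −0.11 and −0.02, beside medians of at most 0.01 in size over all genes. DMSO differed from T0 in 0 of 10 at 1 h (0.0346%), at 3 h (0.0968%) and at 6 h (0.0138%), and in 8 of 10 at 24 h (63.2%), 5 higher and 3 lower. At 1, 3 and 6 h 2, 3 and 3 of the 10 had an unadjusted p under 0.05, and DESeq2 called 0, 1 and 1. The median of the 10 genes was 0.04, 0.05, 0.05 and 0.17, against −0.02 over all genes at 24 h. At 6 h of GSK-J4 and at 24 h of DMSO the calls among the 10 genes, 3 and 8, were near the share of all genes. Steps of the GSK-J4 effect passed in 0 of 10 from 1 to 3 h (0.588%), in 1 from 3 to 6 h (3.67%) and in 0 from 6 to 24 h (5.75%). In each of the steps with 0 calls, 3 of the 10 had an unadjusted p under 0.05, and DESeq2 also called 0. Those of the ZnSO4 effect passed in 3 from 1 to 3 h (2.77%), in 3 from 3 to 6 h (2.18%) and in 1 from 6 to 24 h (0.408%).

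Related genes of haem and iron metabolism were read from a list of 44, of which 39 could be tested (NCOA4 had no matching identifier; FLVCR2, FTMT, HAMP and SLC40A1 did not pass the filter). At 1 h none passed with either compound. With GSK-J4, 3 rose and 1 fell at 3 h (2.38% of all genes called), 11 rose and 6 fell at 6 h (20.4%), and 15 rose and 5 fell at 24 h (32%). With ZnSO4 12 rose and 1 fell at 3 h (10.8%), 9 rose and 4 fell at 6 h (9.32%), and 9 rose and 3 fell at 24 h (9.56%). Most of the rises lay among the 15 genes of the BACH1 and NRF2 network, the partners, relatives and targets of the factors that act on HMOX1. Of these, 10 rose with ZnSO4 at 3 h (median log2 fold change 0.59), 6 at 6 h and 8 at 24 h, and with GSK-J4 2, 7 and 10 rose at 3, 6 and 24 h (median 0.40 at 24 h), to be read against the same shares of all genes.

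Within that network the compounds differed gene by gene. SLC7A11, the cystine importer, rose under GSK-J4 from 3 h on (log2 fold change 1.69 ± 0.12, 2.23 ± 0.10 and 1.54 ± 0.09, adjusted p = 1.1e-18, 9.1e-28 and 7.1e-22). With ZnSO4 it rose by 1.95 ± 0.11 at 3 h and stood at 0.00 ± 0.13 at 6 h (adjusted p = 5.7e-22 and 0.993), a step of −1.95 ± 0.18 (adjusted p = 5.2e-13), with 0.61 ± 0.10 at 24 h (adjusted p = 1.2e-05). GCLM, of glutathione synthesis, rose by 1.06 ± 0.06 at 3 h of ZnSO4 and was lower with GSK-J4 than with ZnSO4 by −1.01 ± 0.06 (adjusted p = 2.5e-21 and 2.8e-21). TXNRD1, thioredoxin reductase, likewise rose by 0.75 ± 0.07 at 3 h of ZnSO4 and was lower with GSK-J4 by −0.67 ± 0.06 (adjusted p = 1.3e-14 and 5.1e-13). NQO1, a quinone reductase, rose with ZnSO4 at 3, 6 and 24 h (0.59, 0.91 and 0.98) and stood at 0.00, 0.04 and 0.12 with GSK-J4, where it did not pass. The direct difference for NQO1 was −0.59, −0.88 and −0.86 (adjusted p = 6.1e-10, 1.3e-15 and 1.0e-15). NFE2L1, which encodes the factor NRF1, had the reverse pattern at 6 and 24 h, with GSK-J4 above ZnSO4 by 1.01 ± 0.06 and 0.87 ± 0.06 (adjusted p = 7.7e-23 and 1.4e-18). MAFG, a small MAF partner of BACH1 and NRF2, rose with ZnSO4 at 3, 6 and 24 h (0.67, 0.51 and 0.50). Under GSK-J4 MAFG rose at 6 and 24 h (0.46 and 0.69). ME1, malic enzyme, rose with both at 24 h (0.54 with ZnSO4 and 0.59 with GSK-J4).

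The enzymes of haem synthesis moved in both directions. ALAS1, the rate-limiting enzyme, rose under GSK-J4 from 3 h on (log2 fold change 0.41, 0.65 and 0.34) and with ZnSO4 at 6 and 24 h (0.45 and 0.40). CPOX, coproporphyrinogen oxidase, fell with GSK-J4 by 0.33, 0.37 and 0.51 at 3, 6 and 24 h, and stood below ZnSO4 at 24 h by −0.54 ± 0.08 (adjusted p = 6.0e-07). In DMSO CPOX had already gone from 145 to 70.1 CPM between T0 and 24 h. Of the 8 enzymes, 2 rose and 2 fell at 24 h of GSK-J4, where 32% of all genes were called, with a median of −0.10.

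**Figure D4:**
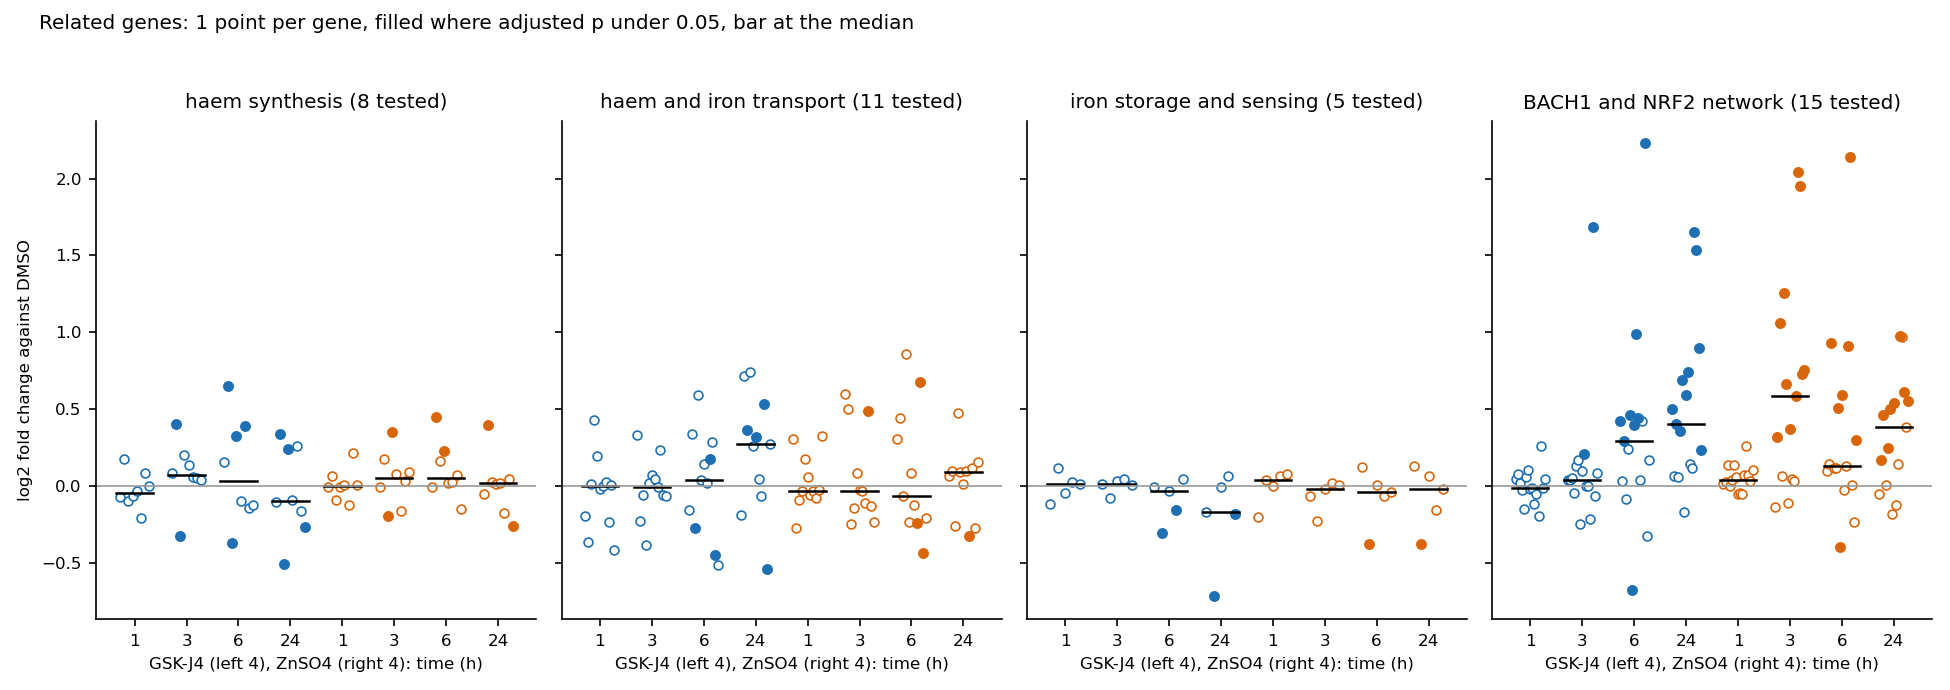
Log2 fold change against DMSO (y axis) of 39 related genes in 4 lists at 1, 3, 6 and 24 h of GSK-J4 (blue) and ZnSO4 (orange), 1 point per gene, filled where the adjusted p is under 0.05, with a bar at the median. The medians of the BACH1 and NRF2 network are 0.59 at 3 h of ZnSO4 and 0.40 at 24 h of GSK-J4, while those of the other 3 lists stay between −0.17 and 0.27.

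The genes whose pattern over the 13 groups was most like that of HMOX1 were named by the correlation of mean log2 CPM. They were PGF, a placental growth factor (Pearson r = 0.939), HSPA6, an inducible HSP70 chaperone (0.926), SLC30A2, a zinc exporter (0.924), UGDH, of glucuronic acid synthesis (0.924), and OSGIN1, an oxidative stress growth inhibitor (0.917), with Spearman rho of 0.72 to 0.868. HSPA6 stood at 2.63 CPM in T0 and at 116, 26.99 and 6.59 CPM with ZnSO4 at 3, 6 and 24 h, the same order as HMOX1. PGF, SLC30A2 and OSGIN1 were at 0.111 to 0.760 CPM in T0, near or under the level of 3 counts. Among the 10 genes, FTH1 was closest to HMOX1 (r = 0.815) and TFRC farthest (r = −0.706). These values describe 13 group means that share libraries, depth and the ZnSO4 groups that dominate HMOX1, and no test was made.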

How the data were processed

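RNA of 39 JJN3 libraries was taken with Trizol and made into libraries with an NEBNext Ultra kit, per the labels' protocols. Reads were aligned with HISAT2 2.1.0 to hg19, per the submitters' processing notes. Which program counted reads, on which annotation and strand, is not given in the sources used here. Raw counts per Ensembl gene were deposited by the authors and used here as they stand, with 0 columns left unmapped. Names came from a name table (51996 of 57773 identifiers) and GENCODE 29 (342 more), and exon lengths, overlaps and hairpins from GENCODE 29 on GRCh38, another build than that of the alignment. All libraries were fitted together in edgeR 4.0.16 (R 4.3.3): scaling was by TMM, genes passed filterByExpr (minimum count 10), each group had a coefficient, and quasi-likelihood F-tests were used with 26 residual degrees of freedom, and Benjamini-Hochberg adjustment over 14460 genes in each of 22 comparisons. A call is an adjusted p under 0.05, and the SE is the size of the log2 fold change over the square root of F. A floor of 3 counts equals 0.2801 to 0.7505 CPM, and no gene of the 10 was at 0 in a library. The sample labels give 1 h groups although the treatment text names only later times, and the labels were followed. Replicates were numbered in accession order, and the labels do not pair them between groups. The gene list, the related lists and the tests were chosen with earlier results of these data known. Beyond the 10 genes, up to 4 related genes per comparison with the smallest adjusted p are named, and the 5 most like HMOX1. Alternatives were RLE factors, library totals, no filter, DESeq2 1.42.0, only the groups compared, no 24 h libraries, leaving out each library and, chosen after the data were seen, ferritin genes summed with their pseudogenes and leaving out the first library of every group.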

Additional observations from a re-analysis of the deposited data

Results flagged for a closer look

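The effect of a compound on a gene differed between neighbouring times in 8 cases, each by the test of the difference itself (edgeR's quasi-likelihood test, adjusted p under 0.05). For ZnSO4, between 1 and 3 h the log2 effect grew by 3.39 for HMOX1, by 1.09 for FTH1 and by 0.47 for BACH1. Between 3 and 6 h it changed by −0.88 for HMOX1, by −0.61 for BACH1 and by 0.38 for FTH1. Between 6 and 24 h it changed by −1.55 for HMOX1. For GSK-J4, the effect on FTH1 grew by 0.42 between 3 and 6 h. The FTH1 steps from 3 to 6 h were the less firm ones: that of ZnSO4 was called in 4 of 12 fits that left out a library and not with DESeq2 (adjusted p = 0.102), and that of GSK-J4 in 11 of 12.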

How the results depend on the processing

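The 8 log2 fold changes of HMOX1 against DMSO kept their direction and their side of the threshold under all alternatives run. Leaving out the first library of every group, which was the lowest for HMOX1 and FTH1 in all 8 compound groups, ended 4 calls and added 4, and the count of genes called became 2 for DMSO against T0 at 3 h, 1 at 6 h and 1 for the GSK-J4 step from 1 to 3 h (each from 0). Direction reversed once, for ACO1 in DMSO against T0 at 24 h with library totals as the scale (−0.21, adjusted p = 0.0173, against 0.01). Over all comparisons, library totals ended 4 calls and added 6, beside that reversed value of ACO1, which also became a call. No filter ended 3 and added 4, fitting only the groups compared ended 1 and added 7, and DESeq2 ended 1 and added 2. RLE factors added 1, and leaving out the 24 h libraries changed none. Leaving out 1 library ended 20 and added 15 calls. The count of genes called became 1 with DESeq2 for DMSO against T0 at 3 h and at 6 h, where it was 0. With no filter and with only the groups compared it became 2 for GSK-J4 against ZnSO4 at 1 h (from 1), 2 for ZnSO4 against DMSO at 1 h (from 1) and 2 for the GSK-J4 step from 1 to 3 h (from 0), and with only the groups compared 1 for the GSK-J4 step from 6 to 24 h (from 0). Leaving out 1 library gave counts of 0 to 2 for DMSO against T0 at 3 h, 0 to 1 at 6 h, 1 to 2 for GSK-J4 against ZnSO4 at 1 h, 0 to 2 for the GSK-J4 step from 1 to 3 h and 0 to 1 for that from 3 to 6 h. The cause was not tested. No paired analysis was possible because the labels carry no replicate numbers shared between groups. Library totals moved the median of all genes at 24 h of GSK-J4 from 0.02 to 0.11. The split of all calls into higher and lower moved by over 10 points, or turned its majority, in these comparisons. For GSK-J4 against DMSO it went from 1422 and 1525 to 1791 and 1117 at 6 h. At 24 h of GSK-J4 it went from 2205 and 2424 to 3256 and 1526. For ZnSO4 against DMSO it went from 953 and 602 to 758 and 947 at 3 h. At 24 h of ZnSO4 it went from 575 and 807 to 676 and 644. Between the compounds it went from 577 and 885 to 1270 and 638 at 3 h. Between them at 6 h it went from 1233 and 1428 to 1528 and 1181, and at 24 h from 1734 and 1812 to 2447 and 1229. For DMSO against T0 at 24 h it went from 4406 and 4734 to 2769 and 6519. For the steps it went from 253 and 277 to 296 and 225 (GSK-J4, 3 to 6 h), from 393 and 439 to 550 and 292 (GSK-J4, 6 to 24 h) and from 90 and 225 to 143 and 160 (ZnSO4, 3 to 6 h). Depth limits BLVRA most.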

Other observations

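A few genes of iron and haem traffic, picked here after their values were seen, moved with both compounds. SLC48A1, which moves haem out of endosomes and lysosomes, was higher with ZnSO4 at 3 and 6 h (log2 fold change 0.49 ± 0.11 and 0.68 ± 0.11, adjusted p = 0.00107 and 8.1e-06) and with GSK-J4 at 24 h (0.53 ± 0.13, adjusted p = 0.00121). STEAP3, the endosomal ferrireductase, was lower at 6 h with GSK-J4 (−0.45 ± 0.10, adjusted p = 7.5e-04) and with ZnSO4 (−0.44 ± 0.10, adjusted p = 0.00251). FECH, which puts iron into haem, was higher at 6 h with both (0.33 ± 0.06 and 0.23 ± 0.06, adjusted p = 3.3e-05 and 0.0105). The comparisons share the DMSO libraries.

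In DMSO alone, 14 of the 39 related genes were higher and 12 lower at 24 h than at T0, in a comparison that called 63.2% of all genes. Those with the smallest adjusted p included MAFF, NFE2L2 and PCBP2. MAFF, a small MAF protein, went from 10.8 to 118 CPM (log2 fold change 3.48 ± 0.11, adjusted p = 7.0e-38), and NFE2L2, which encodes NRF2, from 87.8 to 31.6 CPM (−1.48 ± 0.08, adjusted p = 9.7e-26). PCBP2, an iron chaperone that loads ferritin, went from 208.6 to 435 CPM (1.05 ± 0.06, adjusted p = 6.5e-26).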
